A study of Homo sapiens with 12 samples.

Results

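The comparison described here follows CD99-transfected SaOS-2 cells from day 0 to day 14 in osteogenic differentiation medium. The SaOS-2 line was derived from a human osteosarcoma and keeps osteoblast features, and CD99 is a cell surface glycoprotein that many osteosarcomas express weakly. Sa/CD99 denotes SaOS-2 cells stably transfected with CD99 by calcium phosphate and selected in neomycin. The line is represented by the transfectants wt22 and wt36, each hybridised once at day 0, once at day 7 and once at day 14. The change itself therefore rests on 4 of the 12 arrays of the series, paired by clone. These are wt22 and wt36 at day 0 and wt22 and wt36 at day 14. The standard error and p-value of the change also use the day 7 arrays of both clones. The other arrays are the day 7 arrays of both clones and 2 untransfected SaOS-2 arrays at each of days 0, 7 and 14. Day 0 cells had grown in medium with full serum, and the differentiation medium contained β-glycerophosphate, ascorbic acid and less serum, so the effects of the supplements, the serum and the time in culture cannot be told apart. No Sa/CD99 culture kept in growth medium for 14 days was analysed here.

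Whole-cell mRNA was measured on Affymetrix HG-U133 Plus 2.0 arrays, on which each probe set reports on 1 transcript or a few. The values are log2 signals after RMA normalisation, so a difference of 1 is a 2-fold difference. A probe set entered the comparison when its linear signal exceeded 100 on at least 4 of the 12 arrays, a floor of 6.64 on the log2 scale. Of the 19775 genes on the array, 9731 passed through at least 1 probe set naming that gene alone. Each gene is described by its probe set of highest mean. A gene rose or fell when its day 14 change was at least 1.5-fold with a limma adjusted p of at most 0.05 over 18677 probe sets. The spread behind that p was estimated from all 6 Sa/CD99 arrays, those of day 7 included. Medians of the 12 arrays lay between 5.25 and 5.31. The clones were less alike than the paired SaOS-2 arrays, with a correlation across probe sets of 0.974 to 0.977 between clones on a given day and 0.997 to 0.998 between SaOS-2 arrays. Whether those SaOS-2 arrays came from separate cultures is not stated, so their spread may be technical. In these bulk samples fewer cells of a type and less RNA per cell cannot be told apart.

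The transfected gene was examined first. CD99 gave 12.33 in wt22 and 12.32 in wt36 at day 0, and 12.74 and 12.67 at day 14, a change of 0.38 ± 0.11 (SE, limma adjusted p = 0.0719). SaOS-2 read 12.31 and 12.29 at day 0, and 12.66 and 12.65 at day 14. On this probe set the clones and the untransfected cells were nearly level, with both clones slightly above both SaOS-2 arrays on each of these days. A dimmer CD99 probe set read 6.67 and 6.73 in the clones at day 0 against 11.34 and 11.26 in SaOS-2. In the clones it read 8.36 in wt22 and 6.73 in wt36 at day 7, and 8.24 and 8.88 at day 14. Its day 14 change of 1.86 ± 0.49 did not pass the test (limma adjusted p = 0.0559). For that probe set the signal of the arrays labelled Sa/CD99 went against their label, and the position of its probes relative to the transfected sequence was not examined. Per the study's methods, quantitative PCR served as a separate test of CD99 expression for these RNAs, and its values were not analysed here. Directions between the lines below are therefore between arrays labelled Sa/CD99 and arrays labelled SaOS-2.

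Osteoblasts arise from mesenchymal progenitors under transcription factors such as RUNX2 and SP7, lay down collagen, and mineralise it with the help of alkaline phosphatase and acidic matrix proteins. BMP ligands drive this lineage and induce the ID proteins, which bind basic helix-loop-helix factors and hold back differentiation and cell-cycle exit. Ascorbic acid is a cofactor of the prolyl hydroxylases that fold collagen and of those that mark the hypoxia factor HIF1A for degradation. β-Glycerophosphate supplies phosphate when alkaline phosphatase cleaves it.

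By day 14 the Sa/CD99 clones expressed far less ID1, ID3, ID4 and noggin, less of the hypoxia-inducible BNIP3 and PDK1, and less of many mitotic genes. They expressed more type III collagen, laminin α4, bone sialoprotein and versican, and more of many lysosomal, interferon-stimulated and sterol synthesis genes. In all, 513 genes rose (5.27% of those tested) and 631 fell (6.48%). At least 2-fold changes were seen in 187 genes that rose and 223 that fell, and at least 4-fold changes in 35 and 29. Both day 14 arrays lay above both day 0 arrays for 31.1% of the genes tested and below them for 28.9%. At 18677 probe sets, 844 rose (4.52%) and 1261 fell (6.75%).

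The number of calls depended on how the spread was estimated. The same 6 Sa/CD99 arrays without a clone term gave 337 probe sets that rose and 368 that fell. The 4 arrays of days 0 and 14 alone, with the clone term and 1 residual degree of freedom, gave 214 and 199, and so did leaving out either day 7 array, so each count given below from the 4 arrays alone is also the count without wt22 or without wt36 at day 7. Without wt36 at day 0 there were 3718 called probe sets in place of 2105, without wt22 at day 0 there were 1405, and without wt22 at day 14 there were 1122. Of 179 genes named by rule that rose or fell, 57 kept their call in each of the 18 alternatives that gave them a value. None of the 179 turned its direction. A turn was hardly possible, since all 1144 called genes had moved the same way in both clones. The 18 are not separate checks. Calling on the adjusted p alone could not remove a call, and the fit of the 4 arrays recurs without either day 7 array. The 57 are called stable below, a word that covers those alternatives only. Of these, AOX1, ID4, MYH3, NOG, PROM1, PTGES, SMAD7 and SMPD3 were above the floor on fewer than 6 arrays. They passed the filter only through arrays where they were high, and had no value with the floor required on 6.

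The 12 largest rises were led by KANK4, a cytoskeletal adaptor, COL3A1, which encodes type III collagen, and LBP, a lipopolysaccharide-binding protein. KANK4 read 3.45 in wt22 and 3.38 in wt36 at day 0, 7.84 and 8.39 at day 7, and 8.33 and 8.9999 at day 14 (change 5.25 ± 0.20, limma adjusted p = 0.000989). COL3A1 read 6.46 and 4.44 at day 0, and 10.13 and 10.01 at day 14 (4.62 ± 0.40, adjusted p = 0.00437). Both clones ended at nearly the same COL3A1 signal although wt36 had started lower. LBP rose by 4.55 ± 0.39, FGFBP2, a secreted protein named for binding fibroblast growth factor, by 4.16 ± 0.20, and COLEC12, a scavenger receptor with a collagen-like stalk, by 4.00 ± 0.15. FGFBP2 was already well expressed at day 0, at 8.90 and 9.10, and reached 12.83 and 13.49. The others were IBSP (3.77 ± 0.54), PROM1, a membrane glycoprotein also known as CD133 (3.76 ± 0.36), LAMA4 (3.22 ± 0.19), the zinc transporter SLC39A12 (3.21 ± 0.28), OLFML2B (3.06 ± 0.23), the cold-sensing channel TRPM8 (2.81 ± 0.14) and CYP4X1 (2.77 ± 0.25). For 9 of these 12 both day 0 arrays were at or below the floor, where RMA signal holds a share of background, so their log2 changes are not given as folds of transcript. The 12 were stable except IBSP.

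The 12 largest falls began with ID1 and included MYH3, the embryonic skeletal myosin heavy chain. MYH3 read 7.22 in wt22 and 9.89 in wt36 at day 0 and fell to 3.90 and 4.43 (−4.40 ± 0.54, limma adjusted p = 0.00932). The clones differed more at day 0 than at day 14. COL18A1, the basement membrane collagen that yields endostatin, read 9.68 and 9.71 at day 0 and 6.58 and 6.67 at day 14 (−3.07 ± 0.12). AOX1, an aldehyde oxidase, fell by 2.97 ± 0.21 on the log2 scale, and PTGES, a prostaglandin E synthase, by 2.65 ± 0.18. DKK1, a secreted Wnt antagonist, changed by −2.92 ± 0.24. PLCB4, a phospholipase C, fell by 2.63 ± 0.18 and MEGF6 by 2.60 ± 0.29. ID4, NOG, ID3 and BNIP3 complete the set and are described with their pathways. For 6 of these 12 both day 14 arrays were at or below the floor. AOX1, DKK1, ID4, MYH3, NOG and PTGES were above it on fewer than 6 of all the arrays. The 12 were stable except DKK1 and PLCB4, each of which lost its call in 1 alternative.

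**Figure D1:**
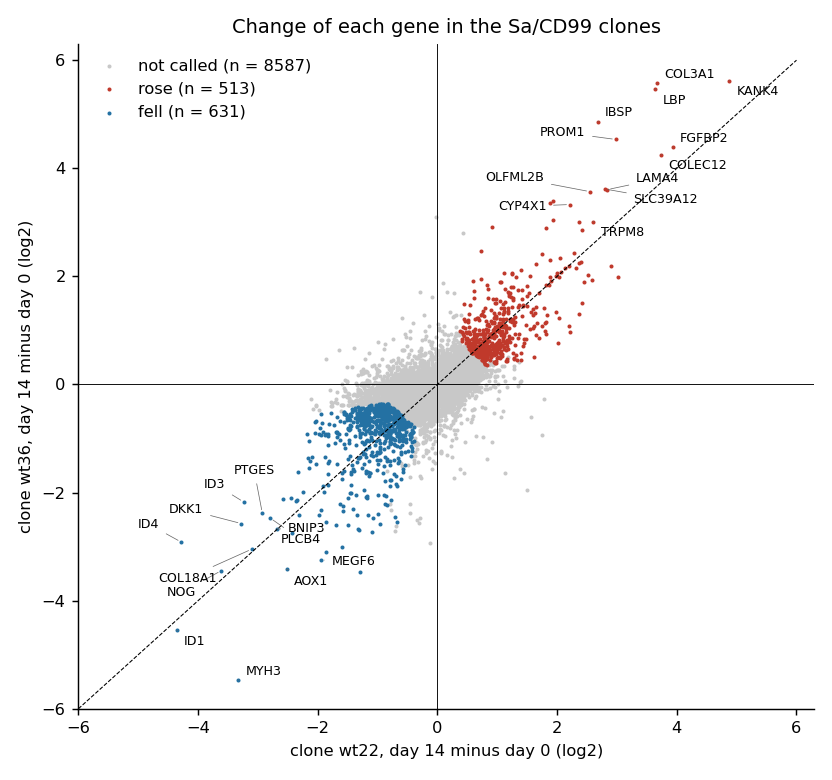
Day 14 minus day 0 change of each of 9731 genes on the log2 scale in clone wt22 (x axis) and clone wt36 (y axis), 1 point a gene, red for the 513 genes that rose and blue for the 631 that fell, with the dashed line marking equal change. The labelled genes are the 12 largest rises and the 12 largest falls, and ID1 and COL18A1 lie near the dashed line while MYH3, IBSP and MEGF6 lie away from it.

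Among the osteoblast identity genes 9 were measured, while SPP1 stayed below the floor and BGLAP had no probe set of its own. Bone sialoprotein (IBSP), a mineral-nucleating matrix protein, and alkaline phosphatase (ALPL) rose, and the remaining 7 did not pass the test. IBSP read 7.37 in wt22 and 3.26 in wt36 at day 0, 10.67 and 6.44 at day 7, and 10.05 and 8.12 at day 14 (3.77 ± 0.54, limma adjusted p = 0.0134). The groups did not overlap, and wt36 at day 14 was 8.12 against 7.37 for wt22 at day 0. ALPL was bright throughout, at 10.66 and 10.85 at day 0 and 11.30 and 11.77 at day 14 (0.78 ± 0.13, adjusted p = 0.0207). Neither call was made without the clone term or from the 4 arrays alone. RUNX2, the master transcription factor of the lineage, read 11.74 and 11.48 at day 0, 12.31 and 12.25 at day 7, and 11.71 and 11.82 at day 14. Its day 14 change was 0.15 ± 0.13 and its day 7 change 0.67, and 2 of its 5 probe sets had a day 14 change of the opposite sign. SP7 (0.04 ± 0.15), SPARC (−0.16 ± 0.18), COL1A1 (−0.30 ± 0.21), DLX5 (0.43 ± 0.12) and the parathyroid hormone receptor PTH1R (0.55 ± 0.20) did not pass the test. Nor did COL1A2, which went up in wt22 and down in wt36 and is given below with the clone differences. The summed linear signal of the 10 list genes on the array went from 26140 to 33906 in wt22 and from 22281 to 20003 in wt36. COL1A1 read 13.27 and 13.07 at day 0 and 13.14 and 12.60 at day 14, among the brightest signals on every array.

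Endothelial, haematopoietic, chondrocyte and adipocyte markers were scarce, and contractile genes of muscle were not. None of 10 endothelial markers was above the floor on any of the 4 arrays, and of 12 haematopoietic and osteoclast markers on the array only CSF1R was, in wt22 at day 14. Chondrocyte markers above the floor numbered 2 to 3 of 17 (SOX9 and HAPLN1, with COL11A2 on 3 arrays) and adipocyte markers 5 of 17, and the summed linear signal of the adipocyte list went from 2604 to 3568 in wt22 and from 2950 to 3365 in wt36. ACSL1 (0.68 ± 0.11) and CFD (0.70 ± 0.15) were the adipocyte-list genes that rose. None of the 4 measured chondrocyte genes was called by limma, with 3 at an unadjusted p under 0.05. Of 22 smooth muscle contractile genes 15 to 17 were above the floor on each of the 4 arrays, and their summed signal is given with the contractile genes.

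Among 21 osteoblast lineage transcription factors 5 rose and 2 fell. PRRX1, a limb and skeletal mesenchyme homeobox factor, rose by 2.61 ± 0.32, from 5.45 and 5.50 to 7.32 and 8.85. KLF4 rose by 1.57 ± 0.16, LEF1, a nuclear mediator of Wnt signals, by 1.498 ± 0.12, CEBPB by 0.93 ± 0.16 and CEBPD by 0.62 ± 0.12. The homeobox factors MSX2, a BMP target (−1.27 ± 0.13), and DLX3 (−0.70 ± 0.13) fell. LEF1 was the stable call among them. MSX2 and DLX3 were above the floor on fewer than 6 arrays, mostly those of day 0, and with a floor required on 6 of 12 arrays the list had 5 rises and no fall. From the 4 arrays alone 2 rose and 1 fell. In the mineralisation list 4 of 11 measured genes rose and 1 fell. SMPD3, a neutral sphingomyelinase needed for bone mineralisation, rose by 1.49 ± 0.14, from 5.90 and 5.83 to 7.31 and 7.41, and was stable. Carbonic anhydrase CA12 (0.95 ± 0.16) and the pyrophosphate transporter ANKH (0.68 ± 0.16) also rose beside ALPL, and the secreted hormone STC2 fell (−1.62 ± 0.22). From the 4 arrays alone 1 of the list rose.

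Of 24 measured non-collagenous matrix and matricellular genes 10 rose and 4 fell, with a median change of 0.32 against 0.02 over all genes tested. The list median was 0.44 in wt22 and 0.03 in wt36, beside 0.05 and 0.001 over all genes, so the list as a whole shifted in wt22 alone. Laminin α4 (LAMA4) read 5.55 and 5.21 at day 0, 7.75 and 7.83 at day 7, and 8.39 and 8.82 at day 14. The proteoglycan versican (VCAN) read 7.43 and 6.25 at day 0 and 9.25 and 9.15 at day 14 (2.36 ± 0.24). CCN5 (2.34 ± 0.16) and the basement membrane linker NID2 (1.51 ± 0.19) also rose and, like LAMA4 and VCAN, were stable. CCN4, a Wnt-induced matricellular protein, rose by 1.39 ± 0.29, from 10.10 and 9.67 to 12.12 and 10.43. Perlecan (HSPG2), a basement membrane proteoglycan, fell by 1.72 ± 0.20 on the log2 scale and was stable. CCN2, known as connective tissue growth factor, fell from 10.39 and 11.04 to 9.69 and 8.58 (−1.58 ± 0.38), and the proteoglycans and matrilins gave LUM at −0.75 ± 0.17 and MATN2 at −0.78 ± 0.12, both falls. Fibronectin (FN1) did not pass the test, at 10.89 and 11.30 against 11.31 and 11.13. The counts were 4 and 1 without the clone term, and 8 to 10 rose and 2 to 6 fell without any single array of day 0 or 14.

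Collagen chains did not move together, since of 14 measured 2 rose and 3 fell with a median of −0.28. COL3A1 and the short-chain collagen COL8A2 (1.17 ± 0.19) rose, and COL18A1, COL6A2 (−1.03 ± 0.24) and COL6A1 (−0.69 ± 0.13) fell. Both type VI chains remained bright, with COL6A1 at 12.92 and 12.20 at day 0 and 12.36 and 11.38 at day 14, so wt22 at day 14 was above wt36 at day 0. The enzymes that process collagen also divided, 4 rising and 5 falling of 25. PCOLCE, which enhances the removal of the collagen C-propeptide, rose from 12.22 and 12.10 to 13.36 and 13.32 (1.18 ± 0.12), as did the C-proteinase BMP1 (0.87 ± 0.16), the prolyl hydroxylase subunit P4HA3 (1.02 ± 0.13) and the cross-linking oxidase LOXL1 (0.64 ± 0.12). Another prolyl hydroxylase subunit gene, P4HA1, fell from 11.56 and 11.46 to 9.32 and 9.48 (−2.11 ± 0.14). LOXL2 (−1.46 ± 0.29), the collagen chaperone SERPINH1 (−1.06 ± 0.21), the lysyl hydroxylase PLOD2 (−1.02 ± 0.13) and the folding enzyme FKBP14 (−0.63 ± 0.14) fell with it. PCOLCE and P4HA1 were stable. From the 4 arrays alone 1 chain rose and 1 fell, and 2 processing genes rose and 2 fell.

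Of 14 measured matrix proteases and inhibitors 4 rose and 3 fell. The urokinase PLAU rose from 7.45 and 7.64 to 9.81 and 8.94 (1.83 ± 0.25), and its inhibitor SERPINE2 from 9.83 and 10.08 to 11.80 and 11.42 (1.66 ± 0.18). The urokinase receptor PLAUR fell from 10.21 and 10.79 to 9.44 and 8.65 (−1.46 ± 0.30). Ligand and receptor thus went opposite ways in both clones. The membrane collagenase MMP14 (1.29 ± 0.18) and the gelatinase MMP2, which MMP14 activates (0.95 ± 0.12), rose. ADAM19 (−0.69 ± 0.13) and the MMP inhibitor RECK (−0.59 ± 0.12) fell, and 1 of the 4 RECK probe sets had the opposite sign. SERPINE2 was stable. Without the clone term 2 of the list rose and none fell, and from the 4 arrays alone 1 rose and none fell.

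**Figure D2:**
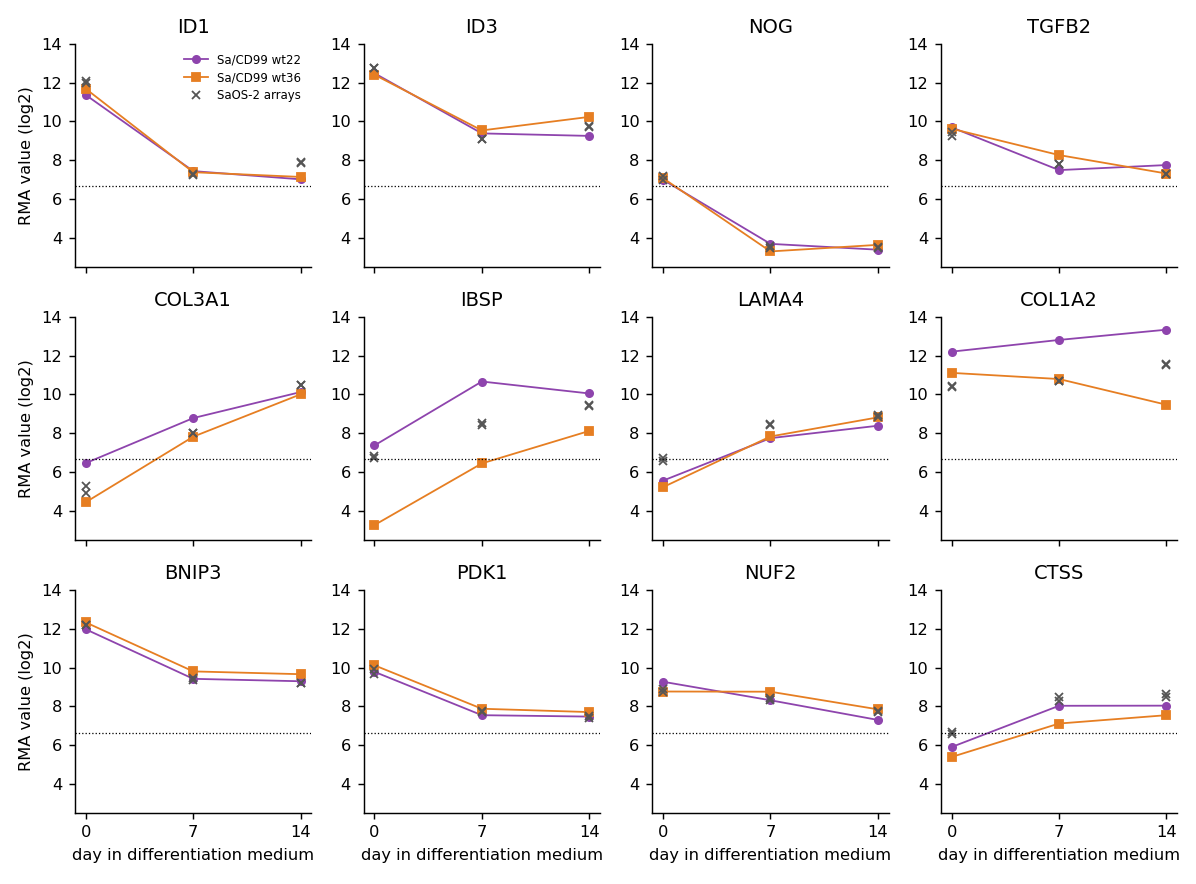
Log2 RMA signal of 12 genes at days 0, 7 and 14, with circles for clone wt22, squares for clone wt36, crosses for the single SaOS-2 arrays and a dotted line at the floor of 6.64. ID1, ID3 and NOG dropped by day 7 in both clones, COL3A1 and LAMA4 climbed through day 14, NUF2 was lowest at day 14, and COL1A2 went up in wt22 and down in wt36.

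The BMP pathway and ID genes gave one of the highest shares of falls, 10 of 18 measured genes against 6.48% over all genes, and 1 rise, with a median of −0.70. ID1 read 11.37 in wt22 and 11.68 in wt36 at day 0, 7.44 and 7.38 at day 7, and 7.01 and 7.13 at day 14 (−4.45 ± 0.13, limma adjusted p = 0.000752). ID4 read 8.73 and 8.26 at day 0 and 4.45 and 5.35 at day 14 (−3.60 ± 0.35). ID3 read 12.49 and 12.41 at day 0, 9.38 and 9.54 at day 7, and 9.25 and 10.24 at day 14 (−2.71 ± 0.25). ID2 read 10.31 and 10.28 at day 0 and 8.15 and 8.74 at day 14 (−1.84 ± 0.18). No day 14 value of any ID gene came within 1 unit of a day 0 value, and each of the 4 was stable. Noggin (NOG), a secreted BMP antagonist that BMP itself induces, fell from 6.99 and 7.07 to 3.38 and 3.63 (−3.53 ± 0.17) and was stable. NOG and ID4 were above the floor on fewer than 6 arrays, and on neither day 14 array of the clones. CRIM1, a membrane protein that tethers BMPs, fell by 1.28 ± 0.20 on the log2 scale. The ligands were among the genes that did not pass the test, with BMP2 at −0.11, BMP4 at 0.13 and BMP7 at 0.15, values chosen for mention after they were seen. BMP1, the 1 gene of the list that rose, is a metalloproteinase and not a BMP ligand. Without the clone term 7 genes of the list fell, from the 4 arrays alone 6, and without any single array of day 0 or 14, 8 or 9. With the floor required on 6 of 12 arrays, 8 fell.

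In the TGF-beta list 8 of 30 measured genes fell and 3 rose, with a median of −0.02. The ligand TGFB2 fell from 9.69 and 9.63 to 7.75 and 7.31 (−2.13 ± 0.28), and its 3 probe sets each fell. The inhibitory SMAD7, a feedback target of the pathway, fell from 7.11 and 7.66 to 5.67 and 5.79 (−1.65 ± 0.14), and SMAD6, which holds back BMP signals, from 8.31 and 8.11 to 7.07 and 6.86 (−1.25 ± 0.13). TGFB2, SMAD6 and SMAD7 were stable, although SMAD7 was above the floor on fewer than 6 arrays. The activin subunits INHBA (−1.25 ± 0.11) and INHBB (−1.07 ± 0.13) and the BMP-regulated SMAD9 (−0.99 ± 0.12) also fell. The list members that rose were the latent TGF-beta binder LTBP1 (1.08 ± 0.11, stable), the BMP signal transducer SMAD1 (0.68 ± 0.13) and the co-receptor endoglin (ENG, 0.64 ± 0.13). Of the list's fallen genes TGFB2, INHBA and INHBB are ligand genes, while SMAD6 and SMAD7 are inhibitors. From the 4 arrays alone 4 genes of the list fell and 1 rose, and without the clone term 6 fell and 1 rose.

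Among 22 measured Wnt pathway genes 5 rose and 2 fell, with a median of −0.18. The list as a whole did not rise, since 14 of the 22 had a change below 0. At an unadjusted p under 0.05, 10 were lower and 7 higher. DKK1 fell from 9.38 and 8.02 to 6.10 and 5.45, and NOTUM, which inactivates Wnt ligands, from 11.36 and 11.46 to 10.70 and 10.54 (−0.79 ± 0.20). LEF1 and AXIN2 (1.23 ± 0.17), both direct Wnt targets, rose with the ligands WNT11 (1.32 ± 0.16) and WNT7B (0.64 ± 0.13) and the antagonist APCDD1 (0.94 ± 0.12). From the 4 arrays alone 2 of the list rose and 1 fell, and with all 12 arrays 5 rose and 5 fell. LEF1 went from 8.51 and 8.73 to 10.10 and 10.13. The Notch list held 1 rise and 1 fall among 17 genes, the ubiquitin ligase DTX4 (2.06 ± 0.22, stable) and the ligand JAG1 (−1.62 ± 0.14). In the insulin-like growth factor system IGFBP7 (−1.30 ± 0.31), PAPPA2 (−1.17 ± 0.18) and STC2 fell and IGF2BP2 (0.62 ± 0.13) rose, of 16 measured.

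Hypoxia and glycolysis genes gave the largest number of falls relative to their list after the BMP list. Of 39 measured genes 21 fell and 2 rose, with a median of −0.65, and 32 of the 39 were lower at day 14 in both clones. BNIP3, a mitophagy receptor induced by HIF1A, read 11.97 and 12.33 at day 0, 9.42 and 9.80 at day 7, and 9.29 and 9.66 at day 14 (−2.68 ± 0.11, limma adjusted p = 0.000989). PDK1, pyruvate dehydrogenase kinase, which keeps pyruvate out of the mitochondrion, read 9.78 and 10.12 at day 0 and 7.47 and 7.70 at day 14 (−2.36 ± 0.11). The HIF prolyl hydroxylases EGLN3 (−2.24 ± 0.15) and EGLN1 (−1.50 ± 0.12) and the enolase ENO2 (−1.85 ± 0.22) fell too. The drop from day 0 to day 7 was −2.54 for BNIP3 and −2.24 for PDK1, close to the day 14 values of the same genes. BNIP3, PDK1, P4HA1, ENO2 and EGLN1 were stable, and EGLN3 kept its call in 17 of 18 alternatives. CA12 and the HIF2 subunit gene EPAS1 (0.88 ± 0.12, from 10.18 and 9.64 to 11.07 and 10.51) were the genes that rose. Without the clone term 9 genes of the list fell, 9 from the 4 arrays alone, and 13 to 22 without any single array of day 0 or 14. The respiratory chain gave no call among 43 genes by limma, with 2 higher and 4 lower at an unadjusted p under 0.05.

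Mitotic spindle and kinetochore genes were lower as a list: 24 of 57 fell, none rose, 56 of 57 had a change below 0, and the median was −0.66. None was higher at an unadjusted p under 0.05 and 44 were lower. NUF2, an outer kinetochore protein, read 9.27 in wt22 and 8.76 in wt36 at day 0, 8.31 and 8.75 at day 7, and 7.29 and 7.84 at day 14 (−1.45 ± 0.26, limma adjusted p = 0.0232). HMMR, a spindle assembly factor, read 9.82 and 9.45 at day 0, 9.71 and 9.75 at day 7, and 7.99 and 8.51 at day 14 (−1.39 ± 0.21). For HMMR the day 7 arrays were level with day 0, so its lower signal was seen at day 14. TTK, the spindle checkpoint kinase, gave −1.35 ± 0.30, the cytokinesis factors ECT2 and ANLN −1.32 ± 0.30 and −1.29 ± 0.22, and the centriole kinase PLK4 −1.28 ± 0.19, all falls. The proliferation marker MKI67 did not pass the test, at 8.96 and 8.87 against 8.51 and 8.67. The clones differed in size, with a list median of −0.73 in wt22 and −0.48 in wt36. This count was among the least settled: 6 genes fell without the clone term, none from the 4 arrays alone, 9 without wt22 at day 0, 3 without wt22 at day 14, 32 without wt36 at day 0 and 31 with all 12 arrays.

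DNA replication genes shifted less. Of 57 measured 7 fell and none rose, with 17 lower and 5 higher at an unadjusted p under 0.05 and a median of −0.16. RAD51AP1, a homologous recombination factor, fell from 9.52 and 8.94 to 7.58 and 8.0003 (−1.44 ± 0.24), and among the others the origin factors ORC6 (−0.86 ± 0.14) and CDC6 (−0.69 ± 0.15), cyclin CCNE2 (−0.86 ± 0.21), E2F8 (−0.78 ± 0.16) and ATAD2 (−0.75 ± 0.17) fell by less. From the 4 arrays alone none of them was called. None of 12 replication-dependent histone genes was called, with 2 higher and none lower at an unadjusted p under 0.05. Among G1 regulators 3 of 21 rose and 3 fell. The CDK inhibitor CDKN1C rose from 5.97 and 5.64 to 7.29 and 7.63 (1.65 ± 0.21, stable), as did GAS1 (1.11 ± 0.13) and the antiproliferative BTG1 (0.70 ± 0.11). The CDK inhibitor CDKN2B fell (−1.39 ± 0.30), with CDK6 (−0.69 ± 0.15) and GADD45A (−0.64 ± 0.16). CCND1 did not pass the floor. None of 38 ribosome biogenesis and MYC target genes was called, with 1 higher and 3 lower at an unadjusted p under 0.05.

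Many promoters of mitotic genes carry the cell cycle homology region, through which the DREAM complex represses them in resting cells. Its letters TTTGAA or TTTAAA were searched on both strands of short RefSeq promoter windows (GRCh38.p14) around each gene's start. Shown are 30-base windows of promoters whose genes fell, with 1 match each in capitals, while the HMMR window holds a further match on the same strand and the ANLN window one on the opposite strand, both in lower case:
NUF2 (chr1:163321958-163321987, plus strand): ggaggcggcaagTTTGAAaagtgatgacgg
HMMR (chr5:163460598-163460627, plus strand): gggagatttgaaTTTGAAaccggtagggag
ECT2 (chr3:172750746-172750775, plus strand): agagcagcttagttTTTGAAtcggttgtgg
ANLN (chr7:36389830-36389859, plus strand): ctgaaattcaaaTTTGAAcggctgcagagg
A match stood in 20 of 23 promoters of list genes that fell (87.0%) and in 21 of 26 of the other measured list genes (80.8%). The share was 15.3% of 8156 promoters of genes tested and 24.3% of 27305 promoters in all. The motif was therefore about as frequent in mitotic genes that fell as in those that did not pass the test. Since 56 of the 57 measured list genes had a change below 0, this comparison cannot show whether the motif goes with the fall. A match is a description of letters and shows no binding.

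**Figure D3:**
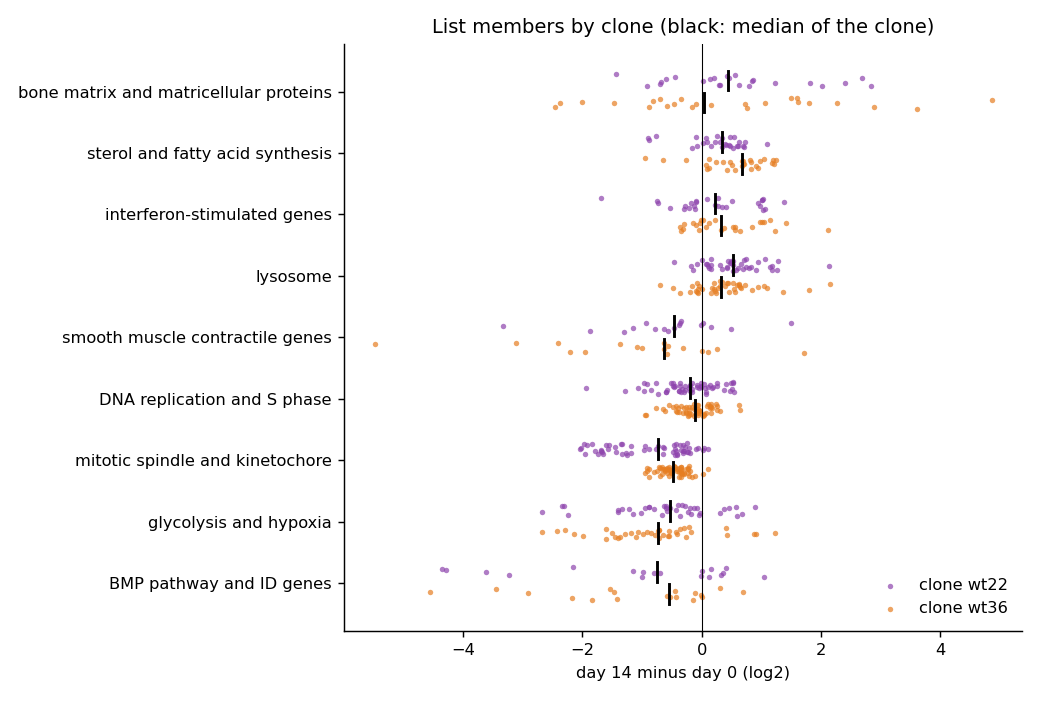
Day 14 minus day 0 change on the log2 scale (x axis) of every measured member of 9 gene lists (y axis), purple for clone wt22 and orange for clone wt36, with a black bar at the median of each clone. Mitotic genes lie to the left in both clones with medians of −0.73 in wt22 and −0.48 in wt36, and lysosome genes to the right with medians of 0.52 and 0.33.

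Lysosomal genes rose and none fell: 16 of 42 measured rose against 5.27% over all genes, with a median of 0.42. At an unadjusted p under 0.05, 26 were higher and 1 was lower. Cathepsin S (CTSS), a cysteine protease, read 5.89 and 5.38 at day 0, 8.02 and 7.11 at day 7, and 8.03 and 7.54 at day 14 (2.15 ± 0.15, limma adjusted p = 0.00252). GALNS, a sulfatase that degrades glycosaminoglycans, read 10.26 and 10.03 at day 0 and 11.52 and 11.83 at day 14 (1.53 ± 0.15). Cathepsin H (CTSH, 1.27 ± 0.15), the peptidase TPP1 (1.11 ± 0.13), the lysosomal acid lipase LIPA (0.96 ± 0.12) and the ganglioside activator GM2A (0.94 ± 0.11) followed. CTSS, GALNS and TPP1 were stable. The list's count was 5 without the clone term, 4 from the 4 arrays alone, 6 without wt22 at day 0, 7 without wt22 at day 14 and 9 without wt36 at day 14.

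Of 29 measured sterol and fatty acid synthesis genes 10 rose and 2 fell, with a median of 0.52, and 23 were higher in both clones. DHCR7, which makes cholesterol in the last step of its pathway, read 8.33 and 8.39 at day 0, 9.75 and 9.72 at day 7, and 9.42 and 9.60 at day 14 (1.15 ± 0.12, limma adjusted p = 0.00622), and was stable. INSIG1, a sterol-regulated brake on SREBP processing, went from 10.14 and 9.87 to 10.83 and 11.06 (0.94 ± 0.16). FADS2 (0.83 ± 0.13), SREBF1 (0.82 ± 0.19), MSMO1 (0.73 ± 0.17) and SQLE (0.71 ± 0.14) rose as well, and the desaturase SC5D (−0.92 ± 0.13) and INSIG2 (−0.76 ± 0.12) fell. The day 7 signal of DHCR7, INSIG1, MSMO1 and SQLE was above the day 14 signal in both clones. The number that rose was 3 without the clone term, 1 from the 4 arrays alone, and 3 to 15 without any single array of day 0 or 14. The sterol response element, searched as TCACNCCAC, was found in 0 of 8 promoters of the genes that rose, 1 of 18 of the other list genes and 1.10% of promoters of genes tested.

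Part of the interferon-stimulated genes rose. Of 27 measured 9 rose and none fell, with 10 higher and 3 lower at an unadjusted p under 0.05 and a median of 0.21. IFITM1, an antiviral membrane protein that osteoblasts also express, read 9.25 and 8.75 at day 0, 10.35 and 9.98 at day 7, and 10.64 and 10.86 at day 14 (1.75 ± 0.19, limma adjusted p = 0.00735). IFITM2 (1.23 ± 0.14) and IFITM3 (1.10 ± 0.13) rose with it, although the 3 IFITM genes are close paralogs whose probes may share signal. The galectin ligand LGALS3BP (1.09 ± 0.12), IFI35 (1.03 ± 0.19) and IRF9, the DNA-binding part of the interferon response complex (1.02 ± 0.12), rose too. IFITM1, IFITM2, IFITM3 and LGALS3BP were stable. Classical interferon targets that did not pass the test included ISG15 at −0.19 and IFIT1 at −0.44, values chosen after they were seen. Without wt36 at day 0, 8 genes rose and 4 fell, and without wt36 at day 14, 7 rose and 2 fell.

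The core of the interferon-stimulated response element was searched on both strands of the same promoters. The windows below are from list genes that rose and are written on the strand of the gene, with the match in capitals:
IFITM1 (chr11:314022-314051, plus strand): acacacttctgaGAAACTGAAAcgacaggg
IFITM3 (chr11:320878-320907, minus strand): ggaaactgttgaGAAACCGAAActactggg
LGALS3BP (chr17:78979964-78979993, minus strand): aggtggtttctgGAAATCGAAAgtagactc
EPSTI1 (chr13:42992274-42992303, minus strand): tgctgattctgaGAAACCGAAActcagctg
EPSTI1 rose by 0.90. The core was found in 4 of 8 promoters of the genes that rose, in 13 of 16 of the other measured list genes (81.2%) and in 2.65% of promoters of genes tested. Genes of the list that did not pass the test held the motif at least as often as those that rose.

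In the MHC class I list 5 of 17 measured genes rose and none fell, with 10 higher and none lower at an unadjusted p under 0.05. The members that rose load or cut peptides or regulate the locus, namely the immunoproteasome subunits PSMB9 (1.06 ± 0.12, from 9.78 and 9.86 to 10.93 and 10.83, stable), PSMB8 (0.82 ± 0.13) and PSMB10 (0.62 ± 0.12), the loading chaperone tapasin (TAPBP, 0.85 ± 0.14) and the transactivator NLRC5 (0.67 ± 0.14). The count was 1 without the clone term, from the 4 arrays alone or without wt22 at day 14, and 3 without wt22 at day 0. Of 8 complement genes C1R (0.62 ± 0.14), CFD and C1QTNF1 (0.78 ± 0.19) rose and clusterin (CLU, −0.91 ± 0.19) fell, and none of these was called without wt22 at day 0 or without wt36 at day 14. Of 14 cytokine and NF-κB genes the interleukin 1 receptor IL1R1 rose from 6.62 and 7.06 to 9.64 and 9.05 (2.503 ± 0.26, stable). The interleukin 6 family cytokines IL11 (−1.61 ± 0.39) and LIF (−1.54 ± 0.32) fell. IL11 went from 10.27 to 9.59 in wt22 and from 10.23 to 7.69 in wt36, so most of its fall came from wt36.

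Contractile genes of smooth and embryonic muscle fell, 6 of 17 with a median of −0.60. Calponin (CNN1) read 10.73 and 11.07 at day 0, 7.57 and 8.46 at day 7, and 8.87 and 7.96 at day 14 (−2.48 ± 0.39, limma adjusted p = 0.0169). Transgelin (TAGLN, −1.78 ± 0.32), synaptopodin 2 (SYNPO2, −1.34 ± 0.12), tropomyosin TPM1 (−0.93 ± 0.19) and cardiac actin ACTC1 (−0.78 ± 0.14) fell beside MYH3. MYH3, CNN1 and SYNPO2 were stable. The summed linear signal of the list went from 55152 to 36974 in wt22 and from 53774 to 31720 in wt36. None of these genes rose, with 2 higher at an unadjusted p under 0.05. The list had 3 falls from the 4 arrays alone, 4 without the clone term or without wt36 at day 14, and 9 with all 12 arrays.

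Signalling and stress lists moved in few members. Over all genes tested 5.27% rose and 6.48% fell. Close to these shares, 9.09% of the AKT list rose and 3.03% fell. In the apoptosis and epithelial-mesenchymal lists 6.67% rose. Falls made up 13.2% of the ER stress list, and the redox list had 10.8% each way. Larger shares came from lists of at most 18 genes. No list was tested against the shares over all genes, so the genes below are given singly and not as changes of a pathway. Of 33 AKT and PI3 kinase genes 3 rose, the mTOR inhibitor DEPTOR (1.10 ± 0.12), the adaptor GAB2 (0.91 ± 0.12) and SESN2 (0.77 ± 0.13), and the gene of the list that fell is PDK1, the pyruvate dehydrogenase kinase described with the hypoxia genes. The list of ERK feedback and ETV factors also holds the cytokines IL11 and LIF. Of its 10 measured genes these cytokines and PHLDA2 (−1.46 ± 0.32) fell, and PHLDA1 (1.10 ± 0.11) rose. Of 18 immediate early factors JUNB (1.003 ± 0.17), KLF10 (0.86 ± 0.12) and JUND (0.73 ± 0.13) rose and FOSL1 (−1.52 ± 0.30) fell. Among 38 ER stress and ATF4 target genes VLDLR (−1.74 ± 0.16, stable), STC2, the cystine transporter SLC7A11 (−1.60 ± 0.26), the chaperone HSP90B1 (−0.86 ± 0.14) and PSAT1 (−0.88 ± 0.22) fell and SESN2 rose. In the redox list 4 of 37 rose, led by GPX7 (1.41 ± 0.16) and GSTM4 (1.24 ± 0.17, stable), and 4 fell, among them NQO1 (−1.02 ± 0.14) and GPX1 (−1.02 ± 0.18). The zinc exporter SLC30A1 fell from 9.63 and 9.52 to 7.30 and 7.91 (−1.97 ± 0.19, stable) and metallothionein MT1E by 0.87 ± 0.15 on the log2 scale, of 8 metallothionein-list genes, where near-identical copies may share signal. Of 30 apoptosis regulators PMAIP1 (0.99 ± 0.11) and BCL2L11 (0.60 ± 0.11) rose and BNIP3, BNIP3L (−1.34 ± 0.13) and BIRC2 (−0.77 ± 0.17) fell. Of 15 epithelial-mesenchymal transition genes SNAI1 rose, from 6.58 and 6.499 to 7.64 and 7.57 (1.07 ± 0.11, stable), and none fell, with 1 lower at an unadjusted p under 0.05. Among 12 marrow stromal surface markers ALCAM (−1.74 ± 0.11, stable), NT5E (−1.05 ± 0.23) and MCAM (−0.77 ± 0.15) fell, and PDGFRA (1.47 ± 0.21) and ENG rose.

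**Figure D4:**
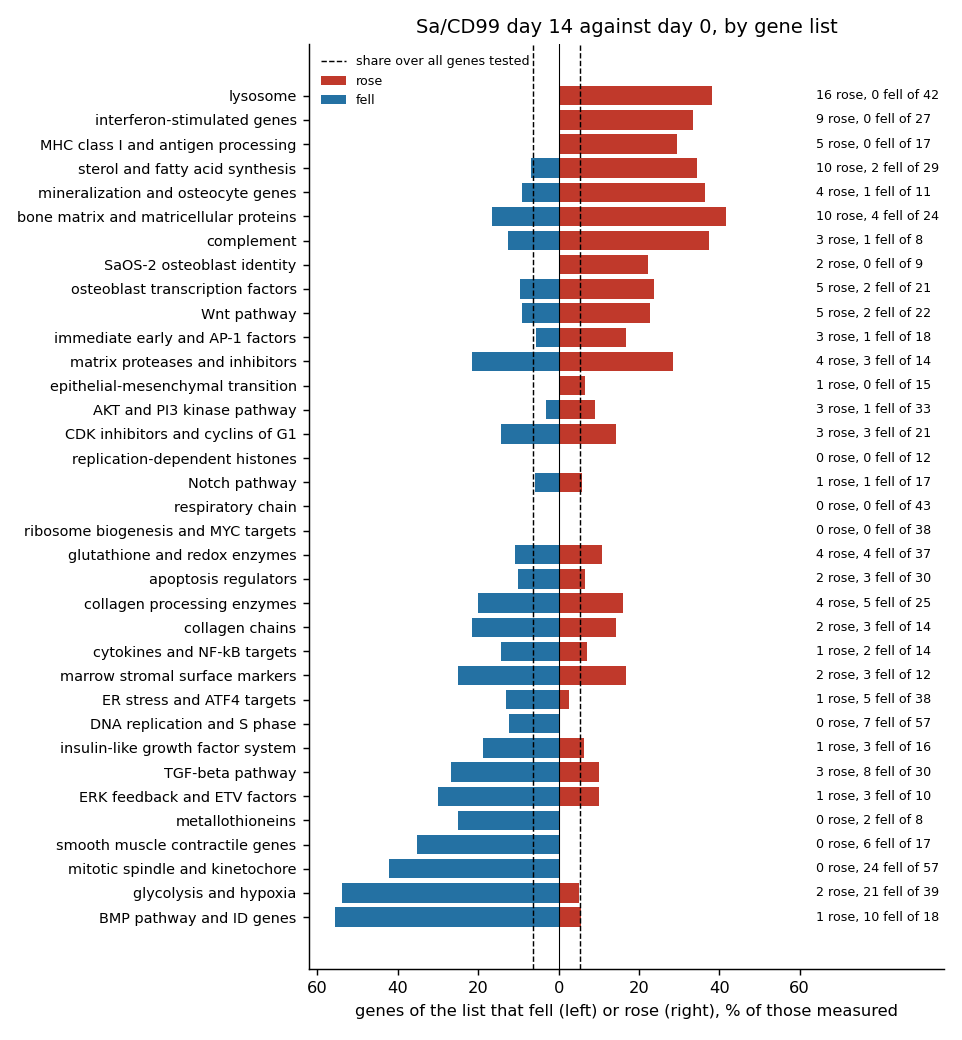
Share of the measured genes of each list that fell (blue bars, left) or rose (red bars, right) in Sa/CD99 at day 14 against day 0, in percent, with the counts printed at the right and dashed lines at the shares over all 9731 genes (6.48% and 5.27%). The lists with at least 8 measured genes are shown, from lysosome at the top with 16 of 42 rising to the BMP pathway and ID genes at the bottom with 10 of 18 falling.

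The clones agreed in direction for 7265 of 9731 genes (74.7%), with r = 0.69 between their changes across genes, a description in which the genes are not independent and each clone has 1 array a day. The genes whose changes differed most between clones are given as values without a test. COL1A2, the second chain of type I collagen, went from 12.21 to 13.35 in wt22 and from 11.12 to 9.47 in wt36. COL11A1 went from 10.16 to 10.03 in wt22 and from 8.26 to 5.33 in wt36. TNNC1 went from 6.28 to 7.78 in wt22 and from 7.32 to 5.38 in wt36. Thus 2 fibrillar collagen genes that were lower in wt36 at day 0 separated further by day 14. SELENOP, a selenium transport protein, went from 9.50 to 9.47 in wt22 and from 6.81 to 9.90 in wt36, and RASL12 from 4.99 to 5.42 and from 5.28 to 8.08. The changes of the others were 1.74 in wt22 and −0.93 in wt36 for EGR1, 0.83 and −1.37 for MAFF, −0.31 and −2.57 for PLAC8, −1.86 and 0.47 for CLGN, −1.65 and 0.65 for PDE5A, −1.39 and 0.67 for PLCL1, and 2.68 and 4.86 for IBSP.

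The untransfected line served to ask where the change in arrays labelled Sa/CD99 differed. Of the 1144 genes that rose or fell in Sa/CD99, 1137 had the same sign in SaOS-2 and 806 also passed the test there in that direction, while 1 gene, SEMA3C, passed it in the opposite direction. In SaOS-2 578 genes rose (5.94%) and 547 fell (5.62%), and of probe sets 910 rose (4.87%) and 1276 fell (6.83%). The largest Sa/CD99 changes had counterparts of similar size in SaOS-2, with ID1 at −4.15, NOG at −3.58, MYH3 at −4.35, KANK4 at 5.06 and COL3A1 at 5.41. The median of the mitotic list was −0.57 and of the hypoxia list −0.69 in SaOS-2, beside −0.66 and −0.65 in Sa/CD99. Not every list was so alike. Medians in SaOS-2 and Sa/CD99 were 0.31 and −0.56 for ERK feedback and ETV factors, 0.51 and 0.02 for cytokines, and 0.01 and −0.28 for collagen chains. These lists were chosen after their values were seen, and none of their genes passed the test of the difference. The difference of the changes was tested in 1 limma model of all 12 arrays, and 4 genes passed, 1 higher in Sa/CD99 (0.0103%) and 3 lower (0.0308%). Of 18677 probe sets 1 was higher (0.00535%) and 5 were lower (0.0268%), and 1344 had an unadjusted p under 0.05.

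The axon guidance ligand SEMA3C read 6.91 and 7.79 in the clones at day 0 and 5.91 and 6.38 at day 14, a fall, while SaOS-2 went from 6.52 and 6.82 to 7.26 and 7.55, a rise. CCN5 reached 7.91 and 7.58 in the clones against 9.05 and 9.06 in SaOS-2, from 5.51 and 5.31 against 5.05 and 5.04. PLXDC1, a plexin-domain membrane protein, reached 5.48 and 6.39 in the clones, below the floor, against 8.36 and 8.36 in SaOS-2, and its second probe set did not pass the test in Sa/CD99. PDE4A, a cAMP phosphodiesterase, fell from 7.16 and 6.95 to 6.501 and 6.18 in the clones and from 7.70 and 7.55 to 5.86 and 5.93 in SaOS-2. For SEMA3C, CCN5 and PLXDC1 the SaOS-2 arrays at day 14 were above both clones, and for PDE4A below both. IL11 and LIF, which fell in Sa/CD99, changed by 0.67 and 0.63 in SaOS-2, and the differences between the lines did not pass the test (limma adjusted p = 0.25 and 0.18). None of the 4 differences passed the test without the clone term.

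**Figure D5:**
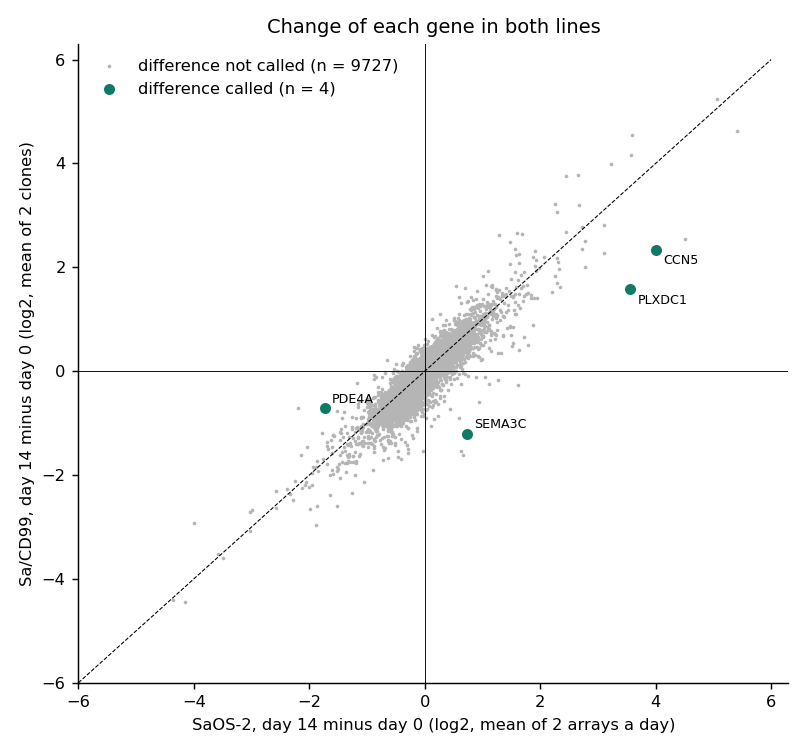
Day 14 minus day 0 change of 9731 genes on the log2 scale in SaOS-2 (x axis, mean of 2 arrays a day) and in Sa/CD99 (y axis, mean of 2 clones), grey where the difference of changes did not pass the test and green for the 4 genes where it did, with the dashed line marking equal change. Most points follow the dashed line, PLXDC1 and CCN5 lie below it, and SEMA3C lies in the lower right quadrant.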

How the data were processed

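Total RNA of 12 samples was hybridised to 1-colour Affymetrix HG-U133 Plus 2.0 arrays. The values are log2 signals that the authors deposited after RMA (background correction, quantile normalisation and probe summary), with affy named in the submitters' processing notes without a version. This method compresses low signals and forces equal distributions, so a change shared by most genes would not show. The table held 54675 probe sets, of which 62 controls were left out. The 18677 with a linear signal above 100 on at least 4 of 12 arrays were tested; 16527 named 1 gene, 829 several and 1321 none by the platform annotation, and 16523 matched a current symbol by gene ID (GRCh38.p14).

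Limma 3.58.1 in R 4.3.3 was fitted to the 6 Sa/CD99 arrays with day and clone as terms (residual df 2, prior df 4.08), and to all 12 arrays for SaOS-2 and the difference of changes (residual df 5). The study's thresholds were used, an adjusted p (Benjamini-Hochberg) of at most 0.05 and 1.5-fold. Clone names pair the arrays: deviations of the same clone correlated at 0.55 (days 0 and 7), 0.31 (days 0 and 14) and 0.61 (days 7 and 14). The numbers of the SaOS-2 arrays gave −0.03, 0.23 and −0.04 and were not used. With 1 array per clone and day, the p-values reflect nothing beyond the scatter among these arrays, whose number limits the precision. The 3′ to 5′ probe differences of GAPDH and ACTB lay between 0.07 and 0.21 at days 0 and 14 in Sa/CD99. At day 7 ACTB gave 0.18 in wt22 and 0.46 in wt36, the highest of the 12 arrays, and both enter the estimate of spread.

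Named were the 12 largest called changes each way with non-overlapping arrays, up to 6 called members of each of 39 gene lists each way, osteoblast identity genes with CD99, MKI67, CCND1, ID1 and FN1, genes called in the difference (at most 8 each way) and the 6 largest clone differences each way. Others named are said to be chosen after their values were seen. Members and lists were chosen with earlier results of these data known, and no list test was run. The scripts were tested on simulated data. Promoters matched by symbol for 8156 of 9731 genes. Alternatives covered the clone term, the arrays fitted, filters, scaling, the variance prior, the call rule, the probe set of a gene and each array left out.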

Additional observations from a re-analysis of the deposited data

Results flagged for a closer look

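The change from day 0 to day 14 differed between Sa/CD99 and SaOS-2 for 4 genes by limma's test of the difference across all 12 arrays. The difference, Sa/CD99 minus SaOS-2, was −1.98 ± 0.18 for PLXDC1 (adjusted p = 0.0165), with changes of 1.58 and 3.56. It was −1.94 ± 0.19 for SEMA3C (adjusted p = 0.0165), with changes of −1.20 and 0.73. For CCN5 it was −1.67 ± 0.16 (adjusted p = 0.0165), with changes of 2.34 and 4.01, and for PDE4A 1.02 ± 0.12 (adjusted p = 0.0409), with changes of −0.71 and −1.73. PLXDC1 was below the floor on every Sa/CD99 array and passed the filter through SaOS-2 arrays alone. CCN5 was below it on all day 0 arrays, and PDE4A on all day 14 arrays. SEMA3C was below it in both clones at day 14 and on a SaOS-2 array of day 0. The sizes of all 4 differences therefore rest partly on background signal. In each case the clones lay on the same side of the SaOS-2 change. None of the 4 passed without the clone term, where the limma adjusted p was 0.51 to 0.92. Leaving out a Sa/CD99 array of day 0 or 14 led to more calls rather than fewer, so those fits are no check on the 4. Without either SaOS-2 day 14 array none of the 4 passed, and without either SaOS-2 day 0 array only PLXDC1 did.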

How the results depend on the processing

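Every named gene that rose or fell kept its direction under all alternatives run, but this outcome was largely fixed beforehand. All 1144 called genes had moved the same way in both clones. The clone term, the day 7 arrays and the SaOS-2 arrays leave the estimated change as it is and alter only its standard error. The arrays fitted and the clone term (replicate block) moved the counts most. Without the block, 705 probe sets were called on the 6 Sa/CD99 arrays (337 rose, 368 fell) in place of 2105, 80 genes of the lists were called, and 81 of 179 named genes kept their call. The 4 arrays of days 0 and 14 with the block gave 413 (214 rose, 199 fell), 67 list genes and 80 of the 179. All 12 arrays gave 2772 with the block and 2419 without. Centring on the array median gave 1015 that rose and 1176 that fell, and quantile normalisation of the tested probe sets 920 and 991. Leaving out 1 array at a time gave 413 to 3718 called probe sets, 214 to 1124 that rose, 199 to 2594 that fell, while the gene list counts (called genes in any list, 222 with every array) ran from 67 to 272. For the difference of changes 6 probe sets passed, 2 without the clone term, and 0 to 174 without 1 array, more (116 to 174) without a Sa/CD99 array and fewer (0 to 2) without a SaOS-2 array. The cause was not tested. Genes that did not pass the test and changed sign with 1 array left out ranged from −1.64 to 0.25 (CLGN), −1.42 to 0.90 (COL1A2), −0.61 to 1.42 (EGR1), −0.12 to 0.38 (FN1), −1.12 to 0.58 (MAFF), −1.52 to 0.52 (PDE5A), −1.21 to 0.49 (PLCL1), −0.10 to 0.19 (SP7), −0.46 to 0.15 (SPARC) and −1.82 to 1.37 (TNNC1). Genes near the floor are limited by signal over background.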
